A study of Mus musculus with 18 samples.

Results

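The cytosolic large ribosomal subunit genes of the mouse were followed through the first 4 days of embryoid body (EB) culture. Members were chosen by symbol: a cDNA clone belonged to the group when its single gene symbol was Rpl with a number, or Rplp0, Rplp1 or Rplp2, and mitochondrial Mrpl genes and pseudogenes were left out. This gave 116 of 17280 clones and 47 of 7142 genes. Clones of a gene were averaged, and 46 of the 47 genes had a clone with a value on every array (all but Rpl36a), out of 4796 genes tested. Only clones with a value on every array entered a gene's mean, 96 of the 116. The EBs were harvested daily from Day 1 to Day 4, without LIF (named D1-LIF through D4-LIF) and with LIF (named D1+LIF through D4+LIF), and the baseline was undifferentiated ES cells (D0), grown on gelatin with LIF. LIF is the cytokine that keeps mouse ES cells undifferentiated in culture. All 9 conditions came from 1 unmodified ES cell line of mouse, IMT11, and each EB sample is a pool of many EBs, so differences between EBs or between cells within an EB are not seen. Each condition was hybridised on 2 arrays against a pooled control made of equal amounts of all 9 samples, with the sample in Cy3 on 1 array and in Cy5 on the other. The labels state 2 biological sets of cultures without saying which array belongs to which, so a difference between dyes and a difference between sets cannot be told apart.

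The large subunit of the cytosolic ribosome holds the catalytic centre that joins amino acids, and a tunnel through which the new protein leaves. Most of its proteins are needed in equal amounts, 1 copy per ribosome, and their mRNAs are among the most abundant in growing cells. In mammals many of these mRNAs begin with a run of pyrimidines at the 5′ end, a 5′ TOP, through which their translation is held back or released together when growth signals change. ES cells grow fast, with a short cell cycle, and ribosomal protein mRNAs are abundant in them.

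Pyrimidine runs at the 5′ end are known for many mRNAs of this complex, and were searched for here by the 6 letters CTTTCC and by length. The bases around the annotated start are shown for the genes with a window that passed the test against D0 below. They are also shown for all genes holding CTTTCC but Rpl13a, which were chosen for these letters and not for a change. The printed windows thus hold CTTTCC more often than the Rpl windows as a whole. Promoters from RefSeq (GRCm38.p6) were matched by symbol for 36 of the 47 genes, giving 42 start sites. Each window runs from 10 bases before the start through the first 20 bases of the transcript, and capitals mark CTTTCC on the strand of the gene. Windows of Rpl28, Rpl35a, Rpl38, Rpl35, Rpl15, the paralogue Rpl39l and Rpl13a hold these letters, in Rpl35a 1 of its 3 windows. The letters lie within the transcript in 5 of the 7, across the annotated start in Rpl35 and wholly before it in Rpl39l. Of the genes that passed the test below, Rpl10, Rpl12, Rpl26 and Rpl37 do not hold them, and no window of Rpl29 is shown.
Rpl28, chr7:4792955-4792984, plus strand: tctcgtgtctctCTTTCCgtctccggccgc
Rpl35a, chr16:33056472-33056501, plus strand: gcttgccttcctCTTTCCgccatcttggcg
Rpl38, chr11:114668570-114668599, plus strand: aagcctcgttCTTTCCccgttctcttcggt
Rpl35, chr2:39005112-39005141, minus strand: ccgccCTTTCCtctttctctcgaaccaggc
Rpl15, chr14:18270967-18270996, minus strand: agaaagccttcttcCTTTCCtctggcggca
Rpl39l, chr16:10170218-10170247, plus strand: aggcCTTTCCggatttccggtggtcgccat
Rpl10, chrX:74270806-74270835, plus strand: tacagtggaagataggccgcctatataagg
Rpl12, chr2:32961702-32961731, plus strand: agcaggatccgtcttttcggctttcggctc
Rpl26, chr11:68901556-68901585, plus strand: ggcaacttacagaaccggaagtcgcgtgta
Rpl37, chr15:5116603-5116632, plus strand: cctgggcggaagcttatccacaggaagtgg

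CTTTCC was present in 7 of the 42 windows of the Rpl genes (16.7%), against 422 of 32851 windows of all genes (1.28%). These 6 letters are not the whole of a pyrimidine run: 14 of the 42 windows held an unbroken stretch of at least 8 pyrimidines (33.3%), against 11.2% of all windows, and the longest was in Rpl27a, where it had 20 bases and CTTTCC was absent. CCGGAAG, the core bound by ETS factors, searched on both strands over the 250 bases before and 50 bases after the start and allowed to share letters with CTTTCC, was present in 15 of the 42 Rpl promoters (35.7%), against 8.86% of all promoters. A match is a description of the letters only. The 7 measured genes with CTTTCC had a median log2 change of -1.44 in D1-LIF against D0, and the 28 measured genes with a start window but without it had -1.48. With the Cy3 ratios inverted these D1-LIF medians were -0.16 and -0.05. In D4+LIF against D0 the medians with and without CTTTCC were -1.91 and -1.42. For CCGGAAG, the 15 measured genes with it had -1.05 in D1-LIF and -1.24 in D4+LIF. The 20 without it had -1.57 and -1.91. These differences were not tested.

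Each array value is a log2 ratio, and 1 unit is a 2-fold difference. The direction of the deposited ratios is not stated. The sample is named as channel 1 on every array whichever dye it carried, so sample over pool is the likely direction, and the counts and medians of the members in each comparison are also given with all Cy3 ratios inverted, here called turned. Over all clones, pairs of Cy3 arrays correlated at a median of 0.29 (-0.23 to 0.74) and pairs of Cy5 arrays at 0.69 (0.26 to 0.90). The 2 arrays of 1 condition, in opposite dyes, correlated at a median of -0.18 (-0.50 to 0.45). Arrays were thus more alike within a dye than within a condition by these medians. Every array consists of 2 slides, and each slide of each array was centred on its own median, so a value is relative to the middle of that slide.

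On the Cy5 arrays the large subunit genes lay far below the slide median in every condition, and they lay lower in all 8 EB conditions than in D0. The median over the 46 genes on the Cy5 arrays was -1.99, -1.18, -1.58 and -1.40 on Days 1 to 4 without LIF and -1.55, -1.80, -1.55 and -2.33 with LIF, against -0.63 in D0. On the Cy3 arrays the same medians were -0.18, 0.42, -0.41 and 0.10 without LIF and 0.06, 0.01, -0.26 and -0.03 with LIF, against 1.01 in D0. The EB values therefore lay near the slide median in Cy3 and well below it in Cy5, and the D0 median lay above that of every EB condition with each dye. On the Cy5 arrays, 39 to 46 of the 46 genes were below 0 in the EBs and 45 in D0. In the EBs the genes spread more widely in Cy5, with an SD between genes of 0.98 in D1-LIF and 1.39 in D4+LIF, than in Cy3, with 0.21 and 0.27, whereas in D0 the wider spread was in Cy3 (0.96, against 0.47 in Cy5). All clones did likewise. On slide 2 their SD was 0.73 in Cy5 and 0.18 in Cy3 in D1-LIF, and 1.22 and 0.15 in D4+LIF. In D0 it was 1.93 on slide 1 and 0.42 on slide 2 in Cy3, against 0.27 and 0.36 in Cy5.

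**Figure D1:**
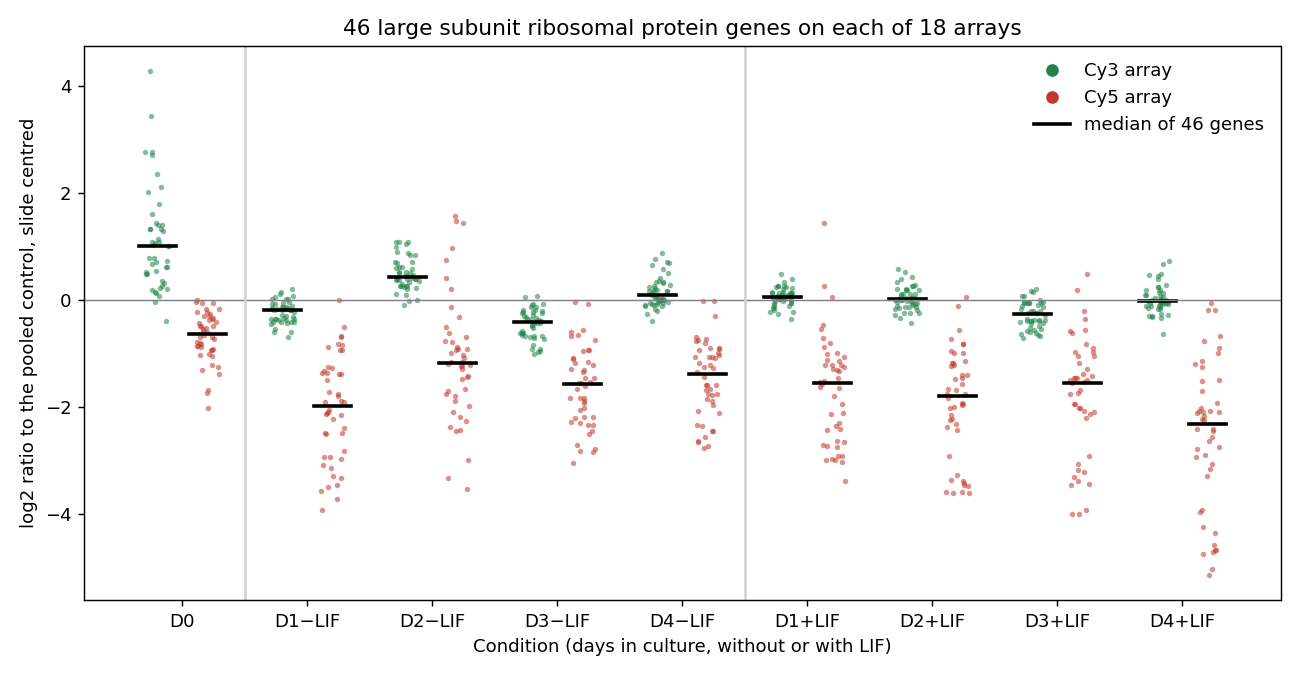
Log2 ratio to the pooled control, centred per slide, of the 46 large subunit genes (points) on the Cy3 and the Cy5 array of each condition, with the median as a black bar. Points of the Cy5 arrays lie mostly below 0, with medians between -2.33 and -0.63, and the Cy3 array of D0 has the highest median, 1.01, and the widest spread in Cy3.

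The Cy3 array of D0 stood apart from the others, and every comparison with D0 rests on it. On slide 1 of that array all clones had a median log2 of -2.75 before centring, and the 41 Rpl clones of the slide had 0.94, so that centring placed them at 3.69. On slide 2 of the same array all clones had -0.31 and the 75 Rpl clones 0.34, which centring placed at 0.65. Of the 46 genes, 15 had a complete clone on slide 1, and each comparison with D0 is therefore also given for the 41 genes with a complete clone on slide 2, from that slide alone. On slide 2 the centring matters in Cy5 as well: in D4+LIF the Rpl clones had a median of -1.19 before centring, and all clones 1.56, against -0.43 and 0.30 in D0. How much of each change comes from the Rpl clones and how much from the middle of the slide was not tested. Of the ES cell markers, 3 of 8 were measured. Nanog, a transcription factor of pluripotency, was at 3.82 in Cy3 and -0.70 in Cy5 in D0, Dppa5a was at 0.50 and -1.33, and Pou5f1, which encodes Oct4, at -0.43 and 0.08. Over the 8 EB conditions against D0 the changes ran from -3.02 to -1.13 for Nanog, from -1.75 to -0.28 for Dppa5a and from -0.94 to 1.18 for Pou5f1. None of the 3 passed the test against D0 in any EB condition, nor did Gata4 and Dab2, the 2 of 8 extraembryonic endoderm markers measured, and no mesoderm or ectoderm marker on the list was measured.

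**Figure D2:**
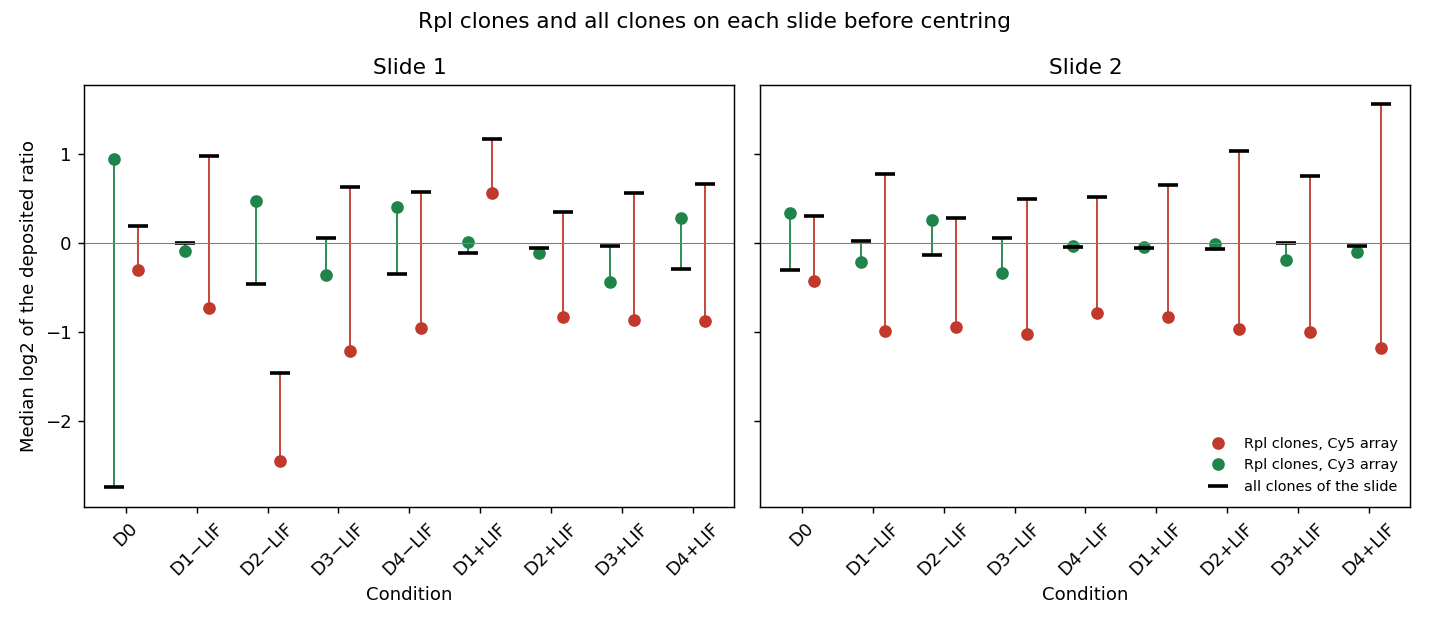
Median log2 of the deposited ratios, before centring, of the Rpl clones (points) and of all clones (black bars) on slide 1 (left) and slide 2 (right) of each array. The widest gap on slide 1 is on the Cy3 array of D0, at 0.94 for Rpl clones and -2.75 for all clones, and the widest on slide 2 is on the Cy5 array of D4+LIF, at -1.19 and 1.56.

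Against D0, the large subunit genes were lower as a group in every EB condition, by a median of 0.51 to 1.32 on the log2 scale, while the median of all 4796 genes was between -0.10 and -0.01. Few single genes passed the test (limma, Benjamini-Hochberg adjusted p under 0.05 over all genes). On slide 2 alone the members' medians were -0.98, -0.36, -0.79 and -0.58 on Days 1 to 4 without LIF and -0.58, -0.87, -0.91 and -1.16 with LIF. All 8 comparisons share the 2 arrays of D0. Since the sets of cultures are not tied to arrays, p-values measure only the spread between these arrays, which may be technical. In such bulk samples, fewer cells with a transcript and less of it per cell cannot be told apart. The cDNA clones may also bind transcripts of near-identical copies, such as expressed pseudogenes, and that part of each value is uncertain.

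In D1-LIF, 4 of the 46 genes fell and none rose, against 0.542% of all genes called lower. The median change of the members was -1.32, against -0.09 for all genes, and 44 of the 46 were lower with both dyes, against 41.9% of all genes. Rpl10, which joins the subunit late in assembly and sits by the P site, was at -0.60 (Cy3) and -3.50 (Cy5) in D1-LIF, against 1.79 and -1.02 in D0. Its change was -2.43 ± 0.43 (SE, n = 2 arrays a condition; limma adjusted p = 0.0477). Rpl10 was thus lower in D1-LIF than in D0 by a like amount with each dye. Rpl26, a protein at the tunnel exit, was at 0.08 and -2.49 in D1-LIF, against 2.77 and -0.58 in D0 (change -2.30 ± 0.40, adjusted p = 0.0477 in limma). Rpl37, also at the tunnel exit, was at 0.01 and -1.37, against 1.01 and -0.23 in D0 (change -1.07 ± 0.18, limma adjusted p = 0.0477). Rpl29, from 1 of its 3 clones, was at -0.36 and -1.91, against 2.72 and -0.04 in D0 (change -2.47 ± 0.42, limma adjusted p = 0.0477). The other 2 clones of Rpl29, which lack a value on the Cy5 array of D2-LIF, were lower than in D0 in Cy3 but not in Cy5, at 0.27 and -0.20 in D1-LIF, against -0.13 and -0.24 in D0. In each of these genes the EB value lay below the D0 value of the same dye, while in 3 of the 4, all but Rpl29, the Cy3 value in D1-LIF lay above the Cy5 value in D0. Each of the 4 had a clone on slide 1. On slide 2 alone the change was -2.07 for Rpl10, -0.46 for Rpl37 and 0.13 for Rpl26, none of which passed, and Rpl29 had no clone there. Slide 2 alone called 1 of 41 members lower, Rpl7, by 1.09 ± 0.20 (log2 change -1.09, limma adjusted p = 0.0405; 0.453% of genes on that slide were called lower). Centring each array over both slides instead called 26 of the 46 members lower, against 5.3% of all genes. With single arrays left out in turn, the calls were lost in most fits. The members' median then ran from -1.33 to -1.12, below 0 whichever array was left out. Without the Cy3 array of D0, no member passed in any of the 8 comparisons.

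In D4+LIF, 2 of 46 genes fell and none rose, against 0.229% of all genes called lower, the median change was -1.30 (all genes -0.10), and 45 of the 46 were lower with both dyes (39% of all genes). Rpl10 was at -0.31 and -4.36 in D4+LIF, against 1.79 and -1.02 in D0 (change -2.72 ± 0.43, limma adjusted p = 0.0455). Rpl12, which binds at the base of the stalk that recruits elongation factors, was at -0.27 and -2.94, against 1.14 and -0.53 in D0 (change -1.91 ± 0.31, limma adjusted p = 0.0455). Both genes were lower in D4+LIF with each dye, and more so in Cy5. On slide 2 alone both passed as well, with Rpl10 at -2.60 and Rpl12 at -2.47, and 27 of 41 members were called lower there, against 8.38% of genes on that slide called lower. Those 27 ran from Rpl10a (-2.83 ± 0.54) to Rpl8 (-0.59 ± 0.14). Centring over both slides called 15 of 46, against 1.73% of all genes. The members' median was -1.82 without the Cy3 array of D4+LIF and -1.0 without its Cy5 array. Both calls were lost in most fits with single arrays left out in turn. In D3+LIF, 2 of 46 fell, Rpl26 (-2.46 ± 0.40) and Rpl37 (-1.39 ± 0.18), with limma adjusted p of 0.0424 and 0.0414, against 0.229% of all genes called lower. The slide 2 changes were -0.24 for Rpl26 and -0.72 for Rpl37, and Rpl7, Rpl31 and Rpl35a passed in their place, against 0.62% of that slide's genes. Centring over both slides called 17 of 46, against 2.06% of all genes.

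The other 5 conditions had no member past the threshold in limma, although the members were lower in the same way. In D3-LIF the median was -1.12, all 46 genes had a change below 0, and 35 had an unadjusted p under 0.05, against 12.4% of all genes; 1 gene of all 4796 (0.0209%) was called, and it was no member. Centring over both slides called 16 of 46 members there, against 2.09% of all genes. D3-LIF was also the condition in which a clone of Rpl10 and a clone of Rpl15 had deposited ratios at least 2-fold below the pool in every spot, and no other Rpl clone had this in any condition. Of all 17280 clones, 27 had this in D3-LIF, the most of any condition, against 2 of the 116 Rpl clones. In D2+LIF the median was -1.17 and 34 members had an unadjusted p under 0.05 (16.3% of all genes), in D1+LIF -1.01 and 27 (14% of all genes), in D4-LIF -0.91 and 21 (5.73%), and in D2-LIF -0.51 and 13 (5.42%). For the conditions with calls these counts were 36 in D1-LIF (18.1% of all genes), 36 in D3+LIF (17.6%) and 39 in D4+LIF (34.3%). D2-LIF had the median nearest 0 of the 8. There 40 of the 46 genes were below D0, a count given without the share of all genes. Rpl39l (1.07 ± 0.79), Rplp2 (0.71 ± 0.54) and Rpl36 (0.68 ± 0.48) had the highest values there without passing the test. The Cy5 array of D2-LIF lacks 15249 spots, mostly on slide 1, where the SD of all clones was 2.05. The only clone of Rpl39l lies on slide 1, and those of Rplp2 and Rpl36 on slide 2. With the Cy3 arrays turned, no gene passed in any of the 8 comparisons, and the members' medians were -0.07, -0.04, 0.19 and 0.05 on Days 1 to 4 without LIF and -0.06, -0.20, -0.01 and -0.45 with LIF. The lower level of the group in EBs thus depends on the likely direction of the Cy3 ratios.

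By place in the subunit, the proteins around the catalytic centre and the P site (Rpl10, Rpl8, Rpl3 and Rpl4) had a median of -1.82 in D1-LIF and -1.48 in D4+LIF, with Rpl10 alone past the threshold. From slide 2 the medians were -1.0 and -1.09, and turned they were 0.22 and -0.11. Rpl8 was at -0.42 and -2.50 in D1-LIF, against 2.36 and -0.89 in D0 (-2.19 ± 0.41, limma adjusted p = 0.055), and on slide 2 its change was -0.66. Rpl10a, the protein of the mobile L1 stalk by which spent tRNA leaves, was at -0.64 and -5.03 in D4+LIF, against 1.29 and -1.31 in D0. Its change was -2.83 ± 0.57 there (limma adjusted p = 0.0577), the lowest of all members in that comparison, and -2.13 in D1-LIF. Turned, its change in D4+LIF was -0.90, and that of Rpl22 was the lowest, at -1.48. The pair that carries 5S rRNA into the subunit, and that binds Mdm2 when free of ribosomes, had changes in D1-LIF of -1.76 ± 0.40 for Rpl5 and -0.48 ± 0.28 for Rpl11, and in D4+LIF of -1.28 ± 0.40 and -0.12 ± 0.28. Of the 3 complete clones of Rpl5, 2 lie on slide 1, and both clones of Rpl11 on slide 2. Measured on slide 2 alone, Rpl5 had -0.04 ± 0.31 in D1-LIF and -0.40 ± 0.31 in D4+LIF, so on that slide it did not lie below Rpl11 in D1-LIF.

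Of the stalk, Rplp0, the scaffold protein, was at -0.35 and -1.38 in D1-LIF, against 1.60 and -0.42 in D0 (-1.46 ± 0.40), and the acidic proteins Rplp1 (-0.44 ± 0.42) and Rplp2 (-0.34 ± 0.54) had changes within about 1 SE of 0. In D4+LIF the 3 had -1.09, -0.98 and -1.0. Of the 4 clones of Rplp0, 3 lie on slide 1, whereas Rplp1 and Rplp2 have clones on slide 2 only. The slide 2 clone of Rplp0 had -0.39 ± 0.22 in D1-LIF, close to the other two, and -0.71 ± 0.22 in D4+LIF. The tunnel exit proteins, where the signal recognition particle and chaperones dock, had a median change of -0.96 in D1-LIF and -1.19 in D4+LIF. Slide 2 alone gave medians of -0.78 and -1.09, and turned they were -0.17 and -0.42. In D1-LIF Rpl26 was lowest of them and Rpl23a, part of the docking site, highest at -0.45 ± 0.15, but on slide 2 alone Rpl26 had 0.13. Of the paralogues, Rpl22l1, the counterpart of Rpl22, had a change of -1.20 ± 0.36 in D1-LIF and -1.65 ± 0.36 in D4+LIF, while Rpl7l1 had changes of -0.08 ± 0.13 and -0.16 ± 0.13. Rpl7l1 rests on 1 of its 3 clones, on slide 2, which lay between -0.21 and 0.21 on every array. Its other 2 clones, on slide 1 and without a value on the Cy5 array of D2-LIF, lay far from the slide median, at -1.71 and -1.16 on the Cy5 array of D1-LIF and 4.35 and 2.52 on the Cy3 array of D0. Rpl39l, the testis-enriched copy of Rpl39, was at 0.02 and -0.87 in D1-LIF, against -0.39 and 0.00 in D0 (-0.23 ± 0.79).

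Among the other members the change was spread widely. Rpl15 had the lowest value of all in D1-LIF, D3-LIF, D4-LIF and D2+LIF, at -3.51, -3.48, -2.19 and -2.54, but with an SE of 1.29, and its clones lie on slide 1 only, where D0 in Cy3 was at 4.28. Rpl27a (-2.79 ± 0.58 in D1-LIF) also had a complete clone on slide 1 only. Of genes whose complete clones lie on slide 2, Rpl32, a common reference gene in RT-PCR, was at -0.30 and -3.46 in D1-LIF, against 1.40 and -0.95 in D0 (-2.11 ± 0.49, limma adjusted p = 0.0758), and Rpl6 was at -0.35 and -3.94, against 1.09 and -1.39 in D0 (-2.0 ± 0.56). Both reached lower values in D4+LIF, at -2.60 ± 0.49 and -2.45 ± 0.56. At the other end, Rpl36 (-0.35 ± 0.48), Rpl27 (-0.45 ± 0.22), Rpl21 (-0.51 ± 0.18) and Rpl38 (-0.59 ± 0.21), the last known in mouse for its part in the translation of Hox mRNAs, had values nearer 0 in D1-LIF. The changes of the 46 genes, paralogues included, thus ran in D1-LIF from -3.51 for Rpl15, on slide 1, to -0.08 for Rpl7l1, on slide 2, with an SD between genes of 0.77, against a median SE of a gene of 0.40.

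**Figure D3:**
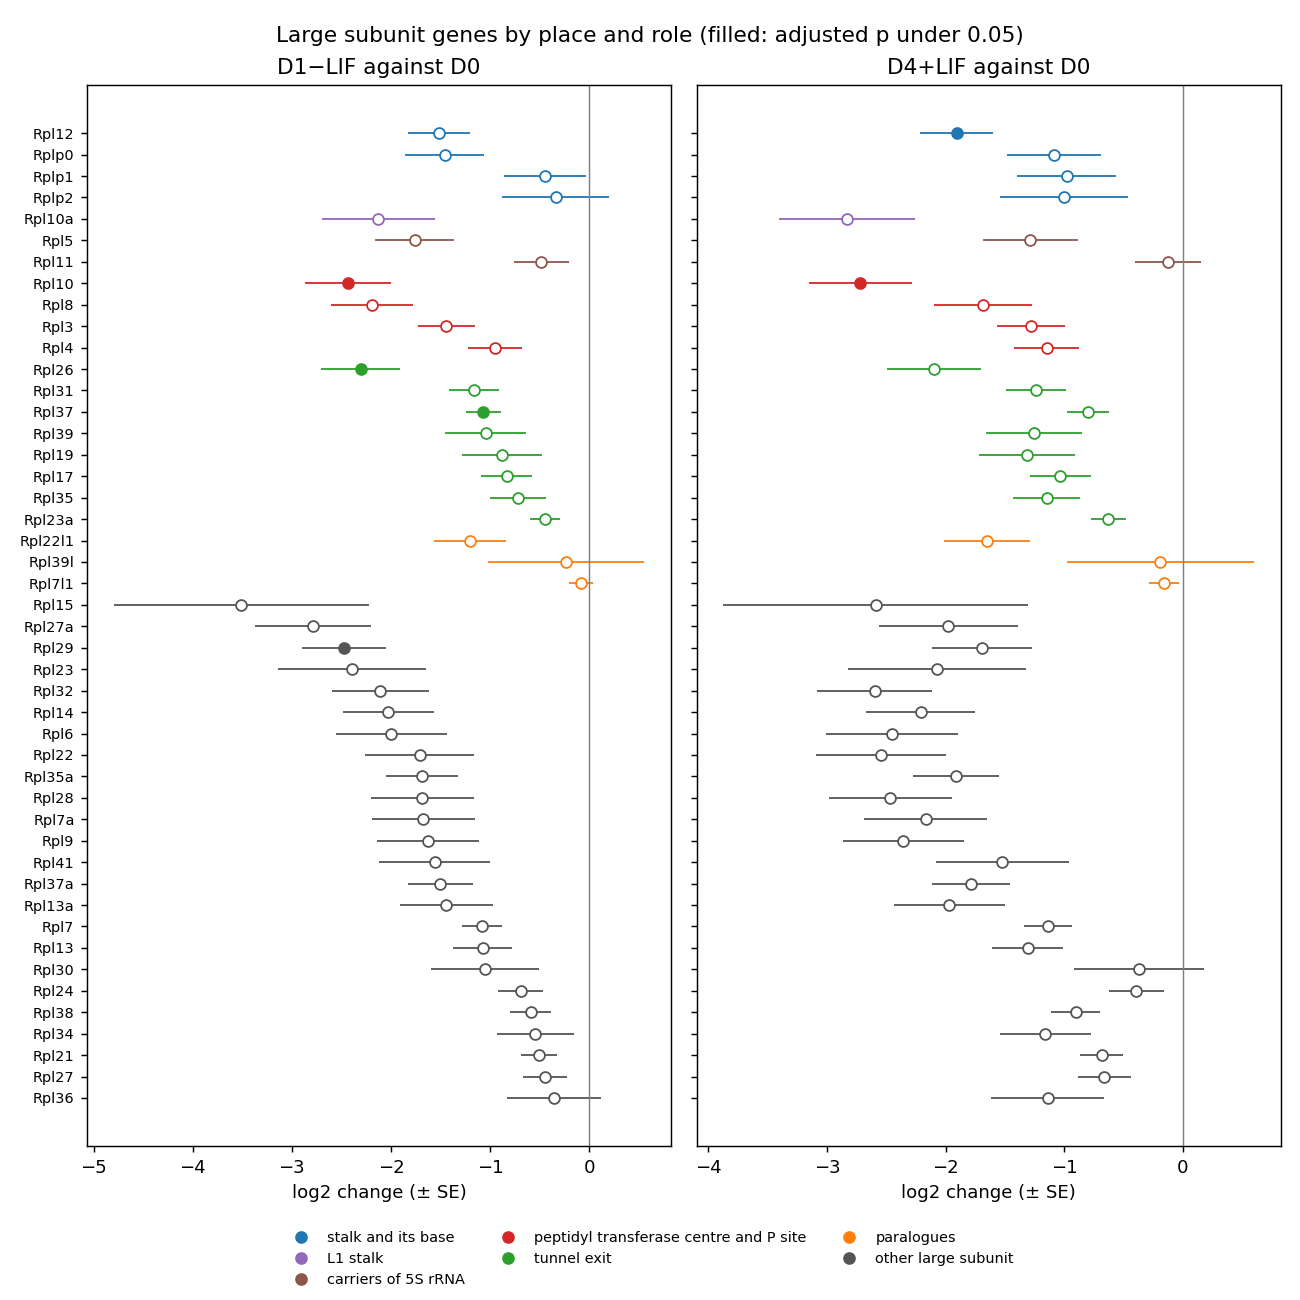
Log2 change (± SE) of the 46 large subunit genes in D1-LIF against D0 (left) and in D4+LIF against D0 (right), grouped by place and role; filled points passed adjusted p under 0.05 in limma. All points lie below 0 in both panels, from Rpl15 at -3.51 to Rpl7l1 at -0.08 in D1-LIF, and 4 points are filled in D1-LIF and 2 in D4+LIF.

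Clones of 1 gene did not always move together. In D1-LIF against D0, the 23 genes with 2 or more complete clones had a median range of 1.22 between their clones, from 0.03 for Rpl38 to 3.76 for Rpl26, whose clones ran from -3.62 to 0.13. In 17 of the 23 genes every clone was below 0, and the clones of Rpl7 (6 clones, -1.19 to -1.03), Rpl6 (3 clones, -2.10 to -1.82) and Rpl10a (2 clones, -2.19 to -2.06) stood close together. The 21 complete clones of slide 1 had a median change of -2.63 in D1-LIF and the 75 clones of slide 2 -1.04; in D4+LIF the medians were -1.98 and -1.29. Clones of slide 1 thus had the lower medians, with the wider gap in D1-LIF.

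The size of the change within each dye differed between conditions. In D1-LIF the members' medians were -1.16 between the Cy3 arrays and -1.36 between the Cy5 arrays, and in D4+LIF -0.99 and -1.68. Across the 46 genes the Cy3 and Cy5 differences had r = 0.54 in D1-LIF and r = 0.17 in D4+LIF, as a description over genes that share arrays. Genes with a lower Cy5 than Cy3 value over all conditions also had the lower changes. The change against D0 correlated with this dye effect at r = 0.68 over the members in D1-LIF (0.81 over all genes) and 0.86 in D4+LIF (0.86 over all genes). Both quantities are computed from the same arrays, so these r are not between separate measurements and may in part be built in. The dye effect ran from -3.71 for Rpl14 to -0.04 for Rpl7l1. Its part in the changes was not tested.

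**Figure D4:**
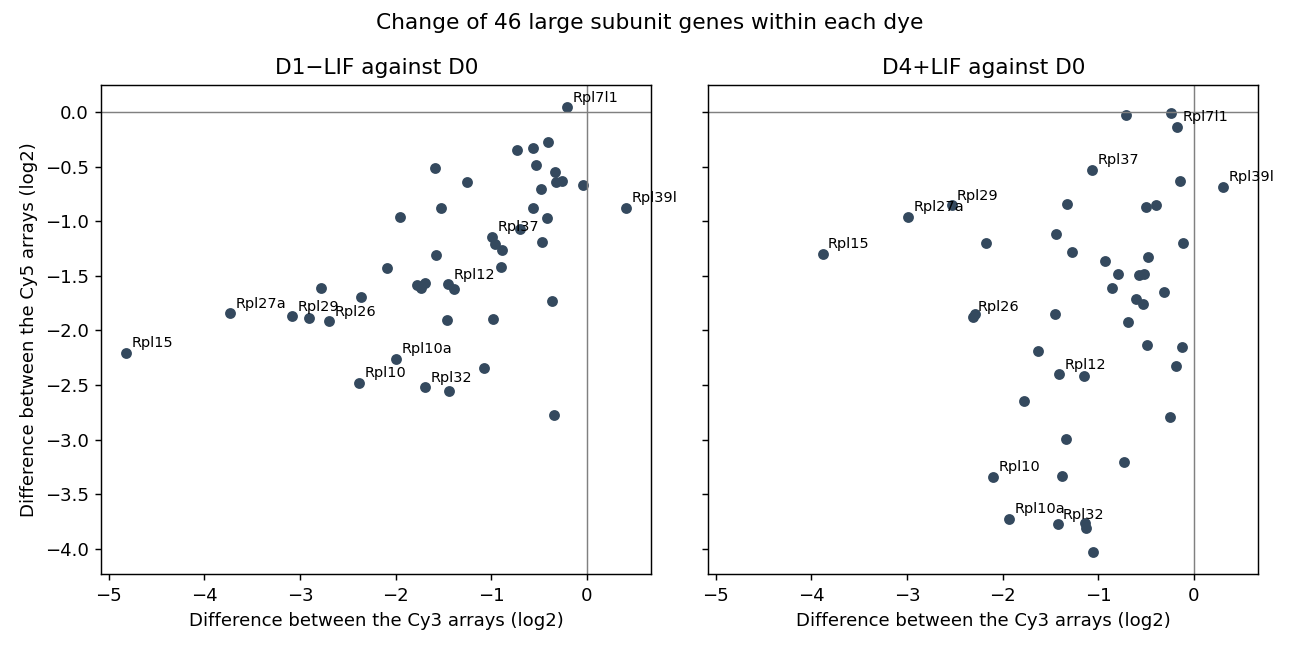
Change of each of the 46 large subunit genes between the Cy3 arrays (x axis) and between the Cy5 arrays (y axis), log2, in D1-LIF against D0 (left) and D4+LIF against D0 (right). Nearly all points lie below 0 on both axes, 44 of 46 for D1-LIF and 45 of 46 for D4+LIF, and the Cy5 differences reach further down in D4+LIF.

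No large subunit gene passed the test for removal of LIF. No D0 value enters that difference, but the D0 arrays are part of the fit that gives its spread and its dye term. Over Days 1 to 4, EBs without LIF were higher than EBs with LIF by a median of 0.24 over the members (all genes 0.03), and 41 of the 46 genes had a value above 0, 22 of them with both dyes. No gene passed (smallest adjusted p of a member 0.577 in limma), and 2 members, Rpl22 and Rpl9, had an unadjusted p under 0.05, against 6.46% of all genes. Rpl39l (0.71 ± 0.40) and Rpl22 (0.67 ± 0.27) had the highest values, and Rpl15 (-0.49 ± 0.64) and Rpl29 (-0.15 ± 0.21) the lowest. Rpl39l rests on 1 clone, on slide 1. It was at 1.48 in D2-LIF and -3.38 in D1+LIF on the Cy5 arrays, both of which lack many spots of that slide. With single arrays left out its difference ran from 0.30, without the Cy5 array of D1+LIF, to 1.12. By day, the median difference was -0.27 on Day 1, 0.66 on Day 2, 0.02 on Day 3 and 0.64 on Day 4. On Day 4, Rpl10 was at 0.11 and -2.45 in D4-LIF, against -0.31 and -4.36 in D4+LIF (1.16 ± 0.43), and Rpl10a was at -0.16 and -2.73, against -0.64 and -5.03 (1.39 ± 0.57). Both were higher without LIF with each dye, and 35 of the 46 members were so on Day 4 and 44 on Day 2. These counts, and the 22 over Days 1 to 4, are given without the share of all genes and describe the members only. Unadjusted p was under 0.05 for 15 members on Day 4 (12.2% of all genes), 10 on Day 2 (7.82%), 1 on Day 1 (1.94%) and none on Day 3 (1% of all genes), with limma adjusted p of at least 0.394. Without the Cy3 array of D4+LIF, the members' median on Day 4 was 1.06, and without the Cy5 array of D4+LIF it was 0.13. With the Cy3 arrays turned, the median was 0.24 over Days 1 to 4 and -0.00049, 0.18, 0.17 and 0.49 by day, and no gene passed.

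No large subunit gene passed the test for time within EB culture. Days 3 and 4 against Days 1 and 2 gave a median of -0.12 over the members without LIF (all genes -0.02) and -0.25 with LIF (all genes 0.02), and no gene passed in limma in either. Without LIF, Rplp2 (-0.77 ± 0.38) and Rpl15 (-0.72 ± 0.91) had the lowest values and Rpl6 (0.37 ± 0.39) and Rpl10a (0.37 ± 0.41) the highest. With LIF, Rpl6 (-0.81 ± 0.39) and Rpl23 (-0.78 ± 0.53) were lowest and Rpl39l (0.58 ± 0.56) and Rpl11 (0.27 ± 0.20) highest. Of the members, 36 were lower in later EBs with both dyes with LIF and 17 without LIF, counts given without the share of all genes. An unadjusted p under 0.05 in limma was found for 1 member with LIF, Rpl23a (2.84% of all genes), and none without LIF (1.27% of all genes). The test of the difference between the courses with and without LIF called no gene either. With the Cy3 arrays turned the medians were 0.19 without LIF and -0.11 with LIF. A test of any difference among the 9 conditions (limma F test) called 0 of the 46 members and 0 of all genes, with an unadjusted p under 0.05 for 29 of the 46 members, against 6.53% of all genes.

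Set against the pooled control, which contains all 9 samples, the large subunit genes had a median below 0 in every EB condition. An equal mix of the 9 samples cannot lie above all of them, yet on the Cy5 arrays the members' median was below 0 in all 9 conditions. The calls here are therefore of centred ratios that differ from 0, not of levels relative to the pool. The source of this offset was not tested. In D4+LIF 34 of 46 passed, all lower, against 17.5% of all genes called lower and 10.4% called higher. In D1-LIF the count was 26 (4.4% of all genes lower, 0.0626% higher), in D3+LIF 22 (4.5% lower, 0.125% higher), in D3-LIF 15 (1.86%) and in D2+LIF 11 (1.27%). In D0, D2-LIF, D4-LIF and D1+LIF no member passed in limma (0.188% of all genes were called lower in D1+LIF), with unadjusted p under 0.05 for 6, 18, 28 and 34 of the 46 members, against 8.15%, 9.38%, 5.86% and 15.1% of all genes. The lowest was Rpl10a in D4+LIF, with a mean over both dyes of -2.84 ± 0.41, and D0 had a median of 0.06, at 1.01 in Cy3 and -0.63 in Cy5. These means set 1 Cy3 and 1 Cy5 array together, and where the dyes stand on opposite sides of 0, as in D0, the mean hides the gap. With the Cy3 arrays turned no gene passed, and the median of the members was between -1.19 and -0.59 in all 9 conditions, D0 included at -0.77.

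Other parts of the translation machinery were set beside the large subunit by their counts. The 27 measured small subunit genes had a median of -1.0 in D1-LIF and -1.40 in D4+LIF, with 2 past the threshold in each, Rps15 and Rpsa. Of all genes, 0.542% were called lower in D1-LIF and 0.229% in D4+LIF. The 14 measured genes for factors that work on the large subunit had a median of -0.95 in D1-LIF and -1.16 in D4+LIF. Among them Eef1a1, which delivers aminoacyl-tRNA, fell by 2.09 ± 0.26 in D1-LIF (log2 change -2.09, limma adjusted p = 0.0284) and by 1.75 ± 0.26 in D4+LIF (-1.75, adjusted p = 0.0455 in limma). The 29 measured genes for ribosome assembly and rRNA synthesis had medians of -0.44 and -0.48 with none past the threshold, Fbl, the methyltransferase fibrillarin, having -1.24 ± 0.31 in D4+LIF. The 20 measured mitochondrial large subunit genes, whose products form a separate ribosome, had medians of -0.12 and -0.28, close to those of all genes at -0.09 and -0.10, with none past the threshold. Turned, the medians in D1-LIF and D4+LIF were -0.13 and -0.58 for the small subunit, 0.06 and -0.32 for the factors, 0.11 and 0.17 for assembly and 0.05 and -0.0023 for the mitochondrial large subunit, and no gene passed. The order of the lists was not tested.

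**Figure D5:**
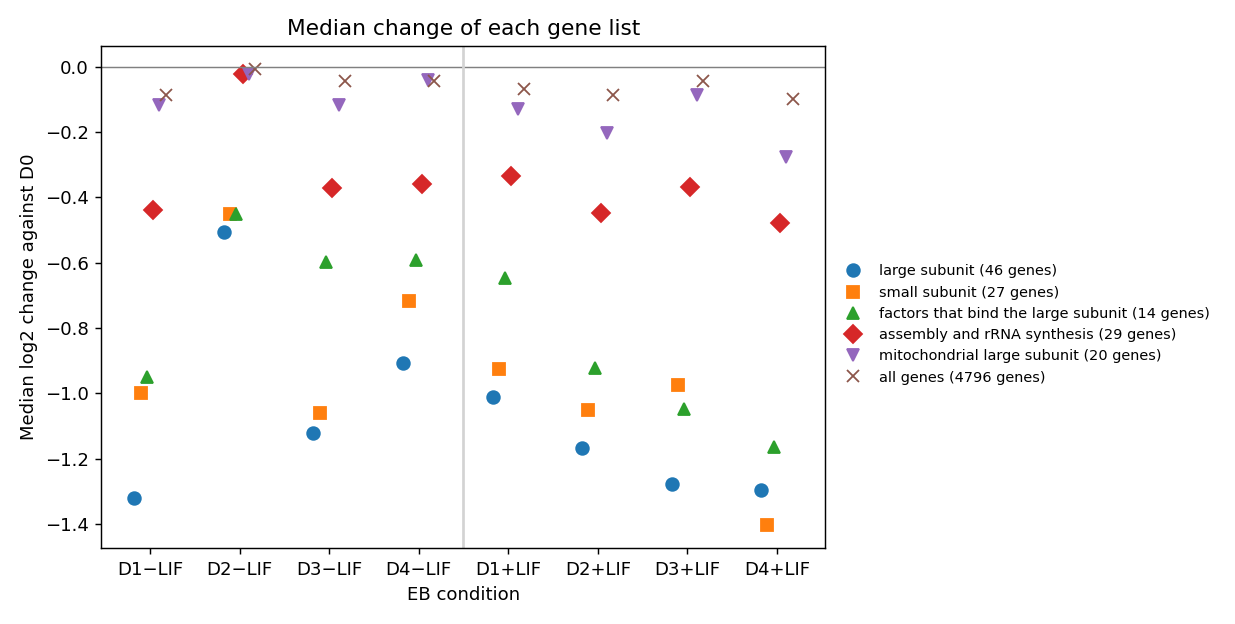
Median log2 change against D0 in each EB condition for the large subunit, the small subunit, factors that bind the large subunit, assembly and rRNA synthesis, the mitochondrial large subunit and all genes. The large subunit lies between -1.32 and -0.51 and the mitochondrial large subunit between -0.28 and -0.02.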

How the data were processed

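Per the labels and the study's methods, RNA was labelled directly with Cy3 or Cy5, hybridised to cDNA slides with duplicate spots, and quantified in ImaGene; each channel was divided by its mean intensity. The authors deposited 1 linear ratio for each spot. Here ratios were taken to log2 (1 value of 0 set to missing), duplicate spots averaged and each slide of each array centred on its median. The Cy5 arrays of D2-LIF and D1+LIF lack 15249 and 7973 spots, mostly on slide 1, so 10105 of 17280 clones are complete. Clones with 1 gene symbol (9866; 274 have several, 7140 none) were averaged per gene. Condition means of the 9 groups and the dye were fitted with limma 3.58.1 in R 4.3.3, with Benjamini-Hochberg adjustment over 4796 genes, and tested on simulated data. The labels do not number the arrays. The spread is that between 2 arrays a condition, and their number limits precision. The alternatives were other centring, scaling, dye, direction, clone and array choices. Genes were named by rule: the stalk genes, Rpl8 and members among the study's primers, the 3 lowest and 3 highest in each comparison with D0, the 2 lowest and 2 highest for LIF and for time, every gene past the threshold and up to 3 genes per comparison list; further members are named by their place or because their values stand out. Members, roles and lists were chosen with earlier results of these data known.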

Additional observations from a re-analysis of the deposited data

How the results depend on the processing

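Few of the calls held under other choices, while the medians of the members against D0 were below 0 under all of them except turning the Cy3 arrays and quantile normalisation, which gave 0.13 in D2-LIF; causes were not tested except where the choice itself removes genes or arrays. Counts are of members past the threshold, with 4 in D1-LIF and 2 each in D3+LIF and D4+LIF as the values reported. The share of all genes called under the same choice is not given beside them. They show only how far the calls move, not a result about the members. With array quality weights, against D0, D1-LIF gave 0, D3+LIF gave 0 and D4+LIF gave 0, and against the pool, D3-LIF gave 35, D4-LIF gave 34, D1+LIF gave 37, D2+LIF gave 0 and D4+LIF gave 0. Without centring, against D0, D1-LIF gave 0, D3+LIF gave 0 and D4+LIF gave 13, and against the pool, D1-LIF gave 10, D3-LIF gave 9, D2+LIF gave 0, D3+LIF gave 12 and D4+LIF gave 22. Changes of the opposite sign then were those of Rplp2 (0.058), Rpl39l (1.53), Rpl7l1 (0.32) and Rpl37 (0.016) in D1-LIF, Rpl39l (1.50) and Rpl7l1 (0.24) in D3-LIF, Rpl11 (0.11), Rpl7l1 (0.15) and Rpl39l (1.37) in D4-LIF, Rplp1 (0.027) and Rpl23a (0.044) in D1+LIF, Rpl27 (0.14) and Rpl39l (1.26) in D2+LIF, Rpl27 (0.16), Rpl7l1 (0.19) and Rpl11 (0.21) in D3+LIF and Rpl39l (1.27), Rpl7l1 (0.61) and Rpl11 (0.65) in D4+LIF. At clone level, counting clones, against D0, D4+LIF gave 27, and against the pool, D1-LIF gave 43, D3-LIF gave 26, D2+LIF gave 27, D3+LIF gave 39 and D4+LIF gave 63. With clones present on at least 1 array of each condition, against D0, D1-LIF gave 0, D3+LIF gave 0 and D4+LIF gave 0, and against the pool, D1-LIF gave 10, D3-LIF gave 3 and D2+LIF gave 0. With clones whose duplicate spots lay within 1 log2 unit, against D0, D1-LIF gave 1, D3+LIF gave 0 and D4+LIF gave 10, and against the pool, D1-LIF gave 13, D3-LIF gave 9, D2+LIF gave 6, D3+LIF gave 14 and D4+LIF gave 20. With each array centred over both slides, against D0, D1-LIF gave 26, D3-LIF gave 16, D3+LIF gave 17 and D4+LIF gave 15, and against the pool, D3-LIF gave 27 and D1+LIF gave 14. Changes of the opposite sign then were those of Rpl39l (0.91) in D1-LIF, Rpl39l (0.99) in D3-LIF, Rpl39l (0.97) in D4-LIF, Rpl7l1 (-0.21) in D1+LIF, Rpl39l (0.86) in D2+LIF and Rpl39l (0.72), Rpl7l1 (0.058) and Rpl11 (0.092) in D4+LIF. With the median absolute deviation of the arrays made equal, against D0, D1-LIF gave 0, D3+LIF gave 0 and D4+LIF gave 0, and against the pool, D1-LIF gave 0, D2+LIF gave 0, D3+LIF gave 0 and D4+LIF gave 0. Changes of the opposite sign then were those of Rpl7l1 (0.029) in D3-LIF, Rpl27 (0.055) in D2+LIF, Rpl22 (-0.14) for without against with LIF, Days 1 to 4 and Rpl10a (-0.094) for Days 3 and 4 against Days 1 and 2, without LIF. With a further limit of 2-fold, against the pool, D3-LIF gave 9. Without the dye term, against D0, D1-LIF gave 0, D3+LIF gave 0 and D4+LIF gave 0, and against the pool, D1-LIF gave 0, D3-LIF gave 0, D2+LIF gave 0, D3+LIF gave 0 and D4+LIF gave 0. After quantile normalisation, against D0, D1-LIF gave 0, D3+LIF gave 0 and D4+LIF gave 0, and against the pool, D1-LIF gave 0, D3-LIF gave 7, D2+LIF gave 0, D3+LIF gave 0 and D4+LIF gave 0. Changes of the opposite sign then were those of Rplp2 (0.17) in D1-LIF, Rpl27a (0.031) in D2-LIF and Rpl7l1 (0.051) in D3-LIF. With the Cy3 arrays turned, against D0, D1-LIF gave 0, D3+LIF gave 0 and D4+LIF gave 0, and against the pool, D1-LIF gave 0, D3-LIF gave 0, D2+LIF gave 0, D3+LIF gave 0 and D4+LIF gave 0. Changes of the opposite sign then were those of Rpl15 (1.31), Rpl27a (0.95), Rpl29 (0.61), Rplp2 (0.066), Rpl7l1 (0.13) and Rpl26 (0.39) in D1-LIF, Rpl29 (0.083) and Rpl27a (1.16) in D2-LIF, Rpl15 (1.76), Rpl27a (1.35), Rpl23 (1.09), Rpl11 (0.32) and Rpl7l1 (0.060) in D3-LIF, Rpl15 (1.20), Rpl27a (0.86), Rpl26 (0.41), Rpl11 (0.16) and Rpl7l1 (0.12) in D4-LIF, Rpl29 (0.10), Rpl26 (0.39), Rpl8 (0.28), Rplp1 (0.12) and Rpl23a (0.075) in D1+LIF, Rpl15 (2.18) and Rpl27a (1.47) in D2+LIF, Rpl26 (0.91), Rpl10 (0.17), Rpl27a (1.41), Rpl7l1 (0.023), Rpl11 (0.40) and Rpl37 (0.16) in D3+LIF and Rpl7l1 (0.022) and Rpl11 (0.11) in D4+LIF. On slide 2 alone, against D0, D1-LIF gave 1 and D4+LIF gave 27, and against the pool, D3-LIF gave 25, D4-LIF gave 1, D1+LIF gave 2 and D2+LIF gave 26. Changes of the opposite sign then were those of Rpl26 (0.13) in D1-LIF. On slide 2 alone after centring over both slides, a choice made after seeing the data, against D0, D1-LIF gave 27, D3-LIF gave 21, D1+LIF gave 9, D2+LIF gave 2, D3+LIF gave 22 and D4+LIF gave 21, and against the pool, D3-LIF gave 33, D4-LIF gave 10, D1+LIF gave 18 and D2+LIF gave 17, and the F test among the 9 conditions gave 11. Without the Cy5 arrays of D2-LIF and D1+LIF, which lack spots, against D0, D1-LIF gave 0, D3+LIF gave 0 and D4+LIF gave 0, and against the pool, D1-LIF gave 1, D3-LIF gave 0, D2+LIF gave 0, D3+LIF gave 3 and D4+LIF gave 19. With each array left out in turn, the counts ran from 0 to 4 for D0 against the pool, 0 to 12 for D1-LIF against D0, 0 to 32 for D1-LIF against the pool, 0 to 6 for D1+LIF against D0, 0 to 7 for D1+LIF against the pool, 0 to 2 for D2-LIF against D0, 0 to 2 for D2-LIF against the pool, 0 to 6 for D2+LIF against D0, 0 to 28 for D2+LIF against the pool, 0 to 10 for D3-LIF against D0, 0 to 26 for D3-LIF against the pool, 0 to 10 for D3+LIF against D0, 0 to 29 for D3+LIF against the pool, 0 to 5 for D4-LIF against D0, 0 to 35 for D4+LIF against D0, 0 to 35 for D4+LIF against the pool, 0 to 2 for Days 3 and 4 against Days 1 and 2, with LIF, 0 to 1 for Days 3 and 4 against Days 1 and 2, without LIF, 0 to 9 for F test among the 9 conditions, 0 to 2 for without against with LIF, Day 1, 0 to 3 for without against with LIF, Day 2, 0 to 25 for without against with LIF, Day 4, 0 to 4 for without against with LIF, Days 1 to 4. In these fits the remaining array of a condition is assumed to vary like the others. Changes that took the opposite sign without 1 array ranged as follows: Rpl10a -0.14 to 0.88 for Days 3 and 4 against Days 1 and 2, without LIF, Rpl11 -0.54 to 0.22 for D3+LIF against D0, Rpl27 -0.47 to 0.048 for D3+LIF against D0, Rpl36 -0.068 to 1.42 for D2-LIF against D0, Rpl39l -0.74 to 0.28 for D1-LIF against D0, Rpl39l -0.67 to 0.35 for D2+LIF against D0, Rpl39l -0.63 to 0.39 for D3-LIF against D0, Rpl39l -0.52 to 0.50 for D4-LIF against D0, Rpl39l -0.70 to 0.32 for D4+LIF against D0, Rpl39l -0.23 to 1.39 for Days 3 and 4 against Days 1 and 2, with LIF, Rpl7l1 -0.18 to 0.010 for D1-LIF against D0, Rpl7l1 -0.093 to 0.093 for D1+LIF against D0, Rpl7l1 -0.067 to 0.12 for D2+LIF against D0, Rpl7l1 -0.14 to 0.049 for D3-LIF against D0, Rpl7l1 -0.18 to 0.0061 for D4-LIF against D0, Rplp2 -0.38 to 1.81 for D2-LIF against D0. No paired analysis was possible because the labels do not number the arrays or tie arrays of different conditions to one set of cultures, and the dye is already in the fit. Turned and slide 2 medians of the gene lists and of the genes grouped by place or by CTTTCC were choices made after seeing the data. Precision is limited by 2 arrays a condition.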
